A study of Mus musculus with 2 samples.

Results

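The genes described here encode the proteins of the cytosolic ribosome. They were chosen by symbol from the mouse gene models on build mm9: protein-coding genes named Rpl or Rps followed by a digit, Rplp0 to Rplp2 and Rpsa, on the autosomes, without the S6 kinases, symbols that carry the pseudogene mark -ps, names ending in Rik, and Rps3. The rule gave 80 of 21410 protein-coding autosomal genes. By symbol, 39 belong to the large subunit, 29 to the small subunit and 3 to the ribosomal stalk, and the other 9 are paralogs or related genes. RNA-Seq had been made from whole brains of reciprocal F1 mouse embryos at E17.5. BxC denotes the F1 of a C57BL/6J mother and a CastEi/J father, and CxB the F1 of a CastEi/J mother and a C57BL/6J father. The labels name no transgene, deletion or treatment for either cross, each brain was processed without pooling, and 1 library per cross is analysed here. No replicate spread could therefore be estimated, no test was made between the crosses, and no interval given here holds the spread between animals. Intervals of single genes cover counting error only. Those of medians treat the genes as independent draws, which they are not, and do not give the spread among genes.

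A ribosome holds a small subunit, which reads the mRNA, and a large subunit, which joins amino acids. Each of its proteins is usually encoded by 1 intron-containing gene that is active in every growing cell. Mammalian genomes also carry many processed pseudogenes of these genes, which are copies of spliced mRNA inserted back into the genome, without introns and often nearly identical to the source. A short read from such an mRNA can match the gene and its copies equally well. The authors describe keeping only reads that aligned to a single place. The question addressed was how the record of a highly expressed gene family varies with such copies. As given below, reads were also listed at windows with an exact copy elsewhere, and why was not tested.

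The alignments held 128944754 reads for BxC and 109719746 for CxB, all of 36 bases, and 6.47% and 6.20% of them were split across a gap. Neuronal and radial glial markers were abundant, with 125562 reads per kb of exon for Tubb3, 44266 for Stmn2 and 19650 for Fabp7 in BxC. The erythroid marker Hba-a1 had 12519 reads per kb in BxC, and of the liver markers Alb and Afp had at most 45 reads in either library, whereas Ttr, which the choroid plexus also makes, had 39825 in BxC and 37523 in CxB. The libraries had been made to keep the strand, but only 43.1% and 42.5% of the reads over protein-coding exons lay on the strand of the gene. For the ribosomal protein genes the share in BxC ran from 7.40% (Rpl13a) to 86.3% (Rpl3). Reads of both strands were therefore counted together, and reads of a gene cannot be told apart from those of a gene that overlaps it on the other strand. Exons of 15 of the 80 genes overlap exons of another gene, by up to 1138 bases (Rpl13a with Flt3l).

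The ribosomal protein genes had a high median of reads per kb of exon beside that of all protein-coding genes, silent ones included. In BxC their median was 4609 reads per kb of exon, with a 95% interval from 2733 to 5901, and the median of all 21410 protein-coding genes was 232. In CxB the family median was 3463 (2265 to 4814) and that of all genes 200. These values are not scaled for depth, and BxC is the deeper library. For the 39 large subunit genes the medians were 5419 (BxC) and 3924 (CxB), and for the 29 small subunit genes 5582 and 4221. Genes of the subunits ran from 654 (Rps15a) to 81646 (Rpl28) reads per kb in BxC.

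Rpl28, a large subunit gene on the plus strand of chr7:4744476-4746164, had the highest level, with 81646 reads per kb in BxC and 57268 in CxB. Rps26, whose protein lies near the mRNA exit channel of the small subunit, had 55474 and 41378. The next places in the mean of the libraries went to large subunit genes. Rpl13a, whose protein also acts in translational repression after interferon-gamma, had 44972 and 33894, and 1138 of its exon bases overlap Flt3l. Rpl8, whose protein lies close to the centre where peptide bonds form, had 44414 and 34013. Rpl13a was the higher of this pair in BxC and Rpl8 in CxB. The order of all 80 genes was nearly shared by the libraries (Spearman's rho = 0.995 across genes, which share the annotation and its lengths).

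**Figure D1:**
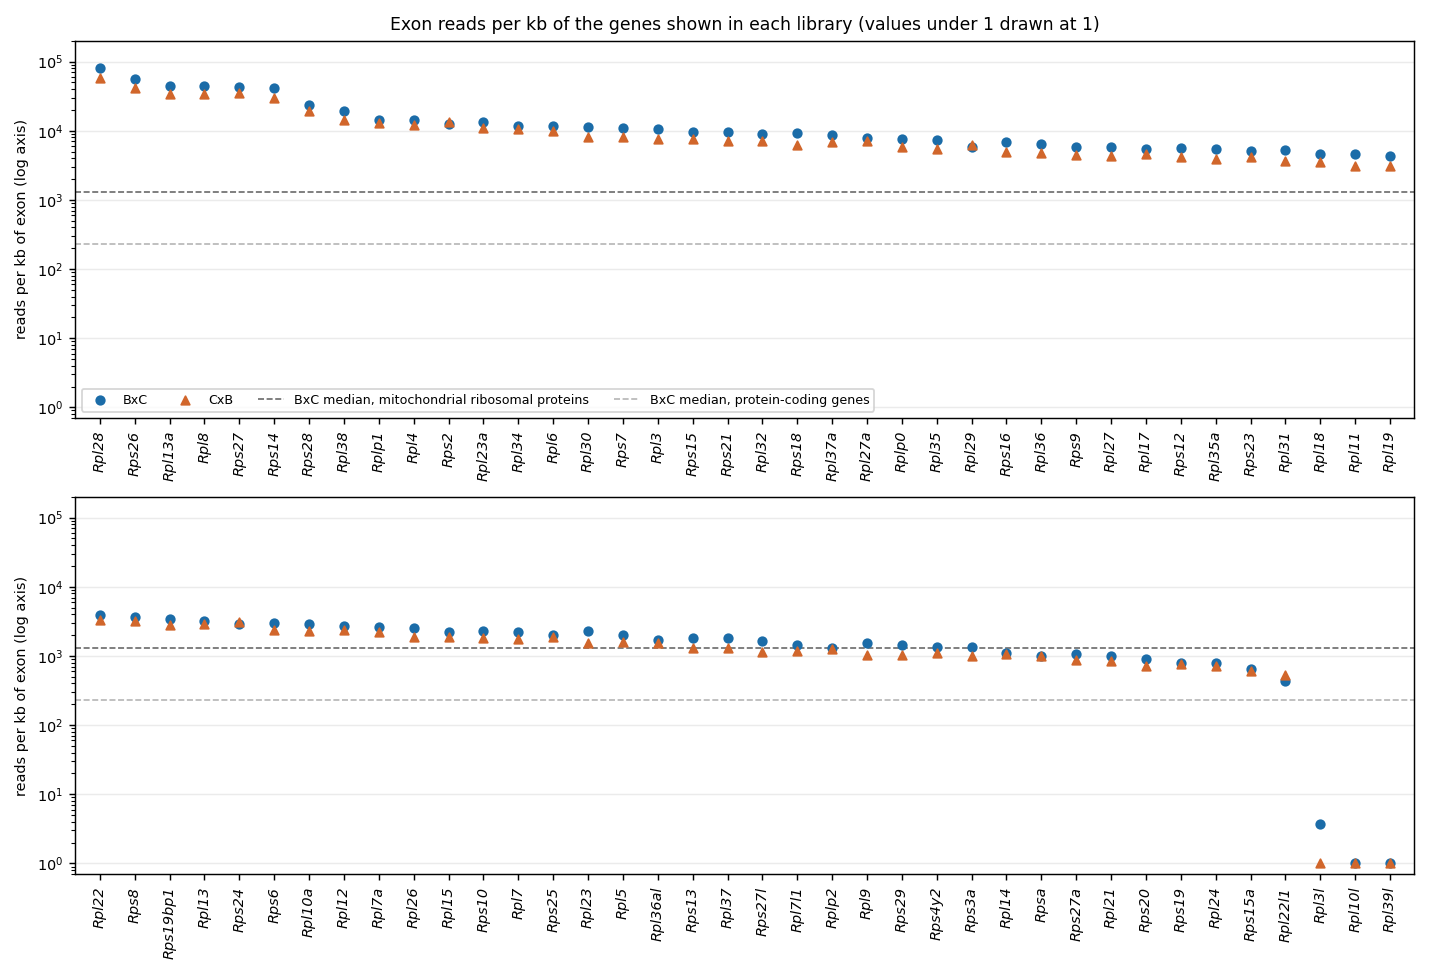
Reads per kb of exon (log axis) of 76 of the 80 genes in BxC (circles) and CxB (triangles), ordered by the mean of the libraries, with 1 point per gene and library and no error bars. Dashed lines mark the BxC medians of the mitochondrial ribosomal protein genes (1315) and of all protein-coding genes (232), and values under 1, found in 3 paralogs at the right end of the lower panel, are drawn at 1.

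At the low end stood paralogs. Rpl10l and Rpl39l, paralogs of X-linked genes known for their expression in testis, had 0 reads in both libraries, which allows at most 2.94 and 3.61 listed reads per kb. These limits take all exon bases as able to hold reads, although 39.96% of the exon windows of Rpl10l had an exact copy elsewhere. Rpl3l, a paralog of Rpl3 known from heart and skeletal muscle, had 6 reads in BxC and 0 in CxB. None of these 3 reached the range of the established genes. Rpl22l1, a paralog of Rpl22, had 440 reads per kb in BxC and 530 in CxB. Rps15a, a small subunit gene, came next with 654 and 611, but its annotated exons span 5992 bases for a coding sequence of 390 bases, and over the coding sequence alone it had 2141 and 1782. With distinct alignment lines in place of reads, which counts each read sequence at a position as 1, the median of the 80 genes was 776 in BxC and 654 in CxB, and with reads on the strand of the gene only it was 1960 and 1596. With the exons of all transcripts of a gene it was 2870 and 2441. Median levels over the coding sequences of the 80 genes were 6033 in BxC and 5052 in CxB.

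Despite these levels, many exon bases had no read at all. The median share of exon bases without a read was 27.98% in BxC, with a 95% interval from 22.8% to 33.4%. In CxB it was 28.8% (25.4% to 34.7%). Among all protein-coding genes with at least 1000 reads per kb it was 1.76% and 1.93%. Of the 70 ribosomal protein genes at that level in BxC, 60 had at least 10% of their exon bases without reads, against 15.9% of all 5831 such genes. In CxB it was 63 of 69, against 17.0% of 5185. Over the coding sequence alone the share without reads was 36.1% in BxC and 37.6% in CxB, so empty bases were frequent within coding sequence too.

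Empty bases were most frequent, apart from the nearly silent Rpl10l, Rpl39l (100% in both libraries) and Rpl3l (86.5% and 100%), in genes with more than 1000 reads. Rps6, whose protein is phosphorylated downstream of mTOR signalling, had 2637 reads in BxC and 2072 in CxB, yet 56.6% and 57.9% of its exon bases were empty. Rpl29, a large subunit gene, had 4601 and 5015 reads with 55.7% and 54.8% of its bases empty. In these genes the reads piled up on fewer than 1 in 2 exon bases. At the other end, Rps19bp1 had 1.33% and 1.45% empty bases and Rpl22 had 1.36% and 1.55%. Rps21, a small subunit gene, had 0.254% and 2.79%. Rpl8 had 5.80% and 6.03%.

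The mm9 genome sequence was then searched for copies of every 36-base window of the exons, on both strands of the 22 chromosomes used. Both crosses also carry a CastEi/J genome, whose sequence was not searched. A window copied exactly in mm9 need not be copied exactly for reads of the CastEi/J allele, and mismatch counts can differ likewise. The part of such differences in the window classes below was not tested. Of 81136 windows lying inside an exon of a ribosomal protein gene, 28590 (35.2%) had an exact copy elsewhere, and 41.4% had a copy with at most 1 mismatch. Windows that lie within the coding sequence were copied exactly in 69.3% of cases. By gene, the median share of exon windows copied was 46.4%, against 0.169% for all protein-coding genes, and 65 of 80 genes had at least 25% of their windows copied, against 15.8% of 21349 protein-coding genes long enough for a window. The median was 43.0% for the large subunit genes and 57.5% for the small subunit genes.

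Copies were counted as places in the genome, more than 1000 bases from the gene, that matched at least 50 coding or junction windows with up to 2 mismatches. There were 1658 such places for the 80 genes, with a median of 13 per gene. Of these, 1592 (96.0%) matched windows across a splice junction without the intron, the mark of a copy made from spliced mRNA. By overlap with the span of an annotated gene, 605 fell in pseudogenes, 451 somewhere within the span of a protein-coding gene, introns included, and 561 in no annotated gene. Rpl7a had the most copies (168), followed by Rpl29 (126), Rpl21 (109) and Rps2 (103). Rpl3l, Rpl39l and Rps19bp1 had none, Rpl8 had 1, and Rpl28, the gene with the highest level, had 8.

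Bases covered only by copied windows were the ones most often empty. In the 80 genes, 32061 exon bases lay in windows that all had an exact copy, and 50.3% of them had no read in BxC and 50.9% in CxB. Of 51194 bases in no copied window, 17.0% and 18.4% were empty. Where some but not all windows over a base were copied, 11.3% and 13.2% of 13491 bases were empty. The same comparison within coding sequence gave 48.8% and 49.04% for bases with all windows copied and 14.6% and 18.3% for bases with none.

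Rpl8 showed the pattern base by base. In this gene 43 exon bases lay only in copied windows, and all 43 had no read in both libraries. Of its 749 bases in no copied window, 6 were empty in BxC and 9 in CxB. In Rpl28, 195 of 410 bases with all windows copied were empty in BxC and 222 in CxB, against 14 and 35 of 420 bases in no copied window. In Rps26 it was 66 and 67 of 197 bases, against 0 and 4 of 79. In all 3 genes the empty bases were the more frequent where every window was copied.

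**Figure D2:**
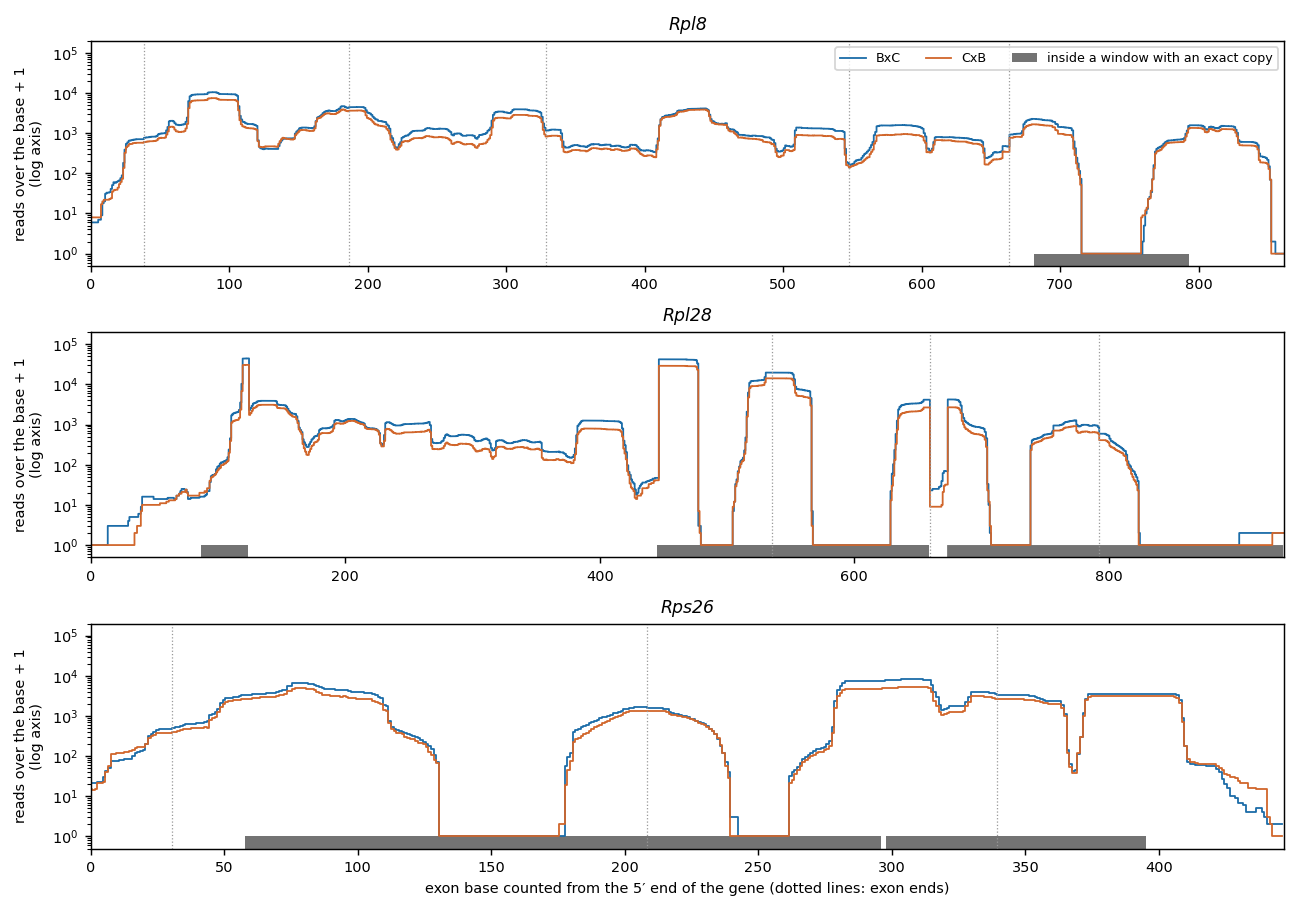
Reads over each exon base plus 1 (log axis) along the joined exons of Rpl8, Rpl28 and Rps26, counted from the 5′ end of the gene, for BxC and CxB. Dotted lines mark exon ends and the grey bar marks bases that lie inside at least 1 window with an exact copy elsewhere: in Rpl8 all 43 bases that only copied windows cover have no read, and so do 195 of 410 such bases of Rpl28 and 66 of 197 of Rps26 in BxC.

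Across genes, the share of coding windows with an exact copy moved together in part with the share of empty coding bases. Spearman's rho over the 80 genes, the nearly silent ones included, was 0.448 in BxC and 0.433 in CxB. Genes were also grouped by the share of coding windows copied, in classes chosen after the values were seen. Only genes with at least 100 reads were counted in these classes. The 4 genes with under 25% of coding windows copied included Rpl8, Rpl24 and Rps19bp1, and their median share of empty coding bases was 2.85% in BxC and 2.79% in CxB. It was 13.1% and 15.6% for the 16 genes from 25% to 75%, and 39.2% and 40.4% for the 57 genes at or above 75%. The ranges overlapped: the highest value in the middle class was 41.8% and the lowest in the top class 16.2% in BxC. The low copied share of Rpl24 holds for its annotated model, which has 17 exons and a coding sequence of 3629 bases. Junctions 1 to 5 of that model were copied in all windows and junctions 6 to 17 in none. Rps19bp1 does not encode a ribosomal protein.

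**Figure D3:**
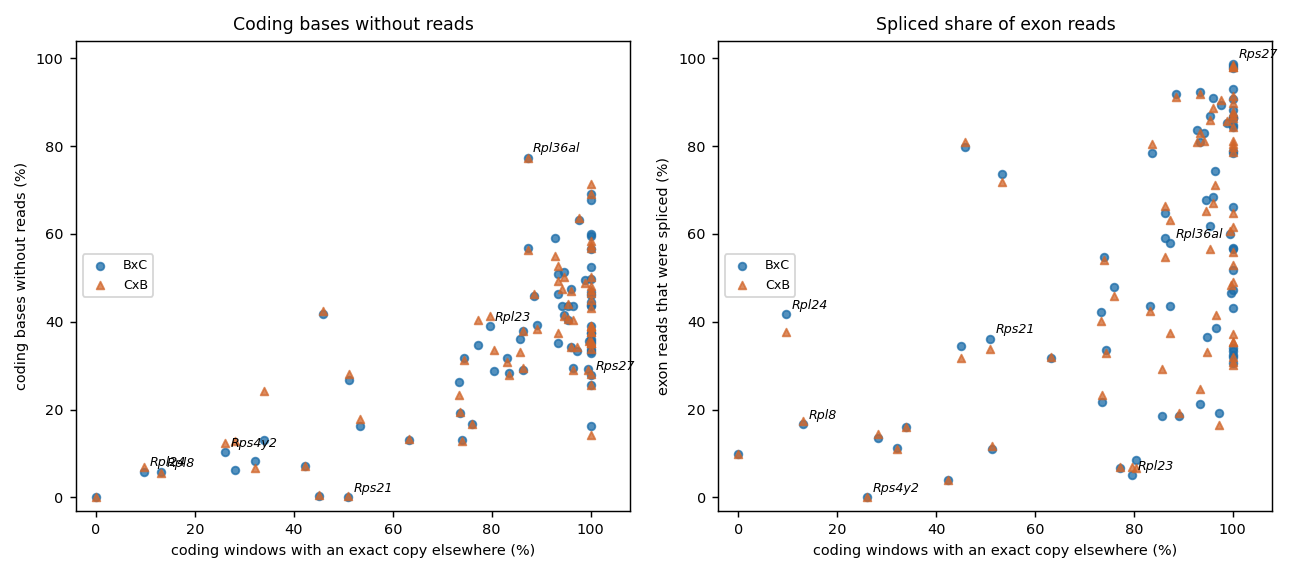
Share of coding windows with an exact copy elsewhere (%) against the share of coding bases without reads (left, %) and the share of exon reads that were spliced (right, %), 1 point per library for each gene shown with at least 100 reads. Rpl8, at the left of both panels, has few empty coding bases. Rpl24 also lies there, but over an annotated model of 17 exons, with junctions 1 to 5 copied in all windows and 6 to 17 in none. Rps27, with 100% of its coding windows copied, has spliced shares of 98.8% and 98.5%.

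Rps26 shows how windows with and without a mismatch to a copy differed. The sequences below are the inner 30 bases of 36-base windows, read in the direction of the mRNA, taken from the mm9 sequence. The first line is the coding window with the most reads in BxC among those whose nearest copy has 1 mismatch, and the second line is that copy, with the differing base in capitals. The last line is the nearest coding window that has an exact copy and was the start of no read. These windows were picked by their reads and stand as examples.
Rps26, chr10:128062290-128062319, minus strand: aatcgatcccgcgaGgcccggaaggaccga
copy of Rps26, chr8:109963178-109963207, minus strand: aatcgatcccgcgaAgcccggaaggaccga
Rps26 window copied exactly, chr10:128062309-128062338, minus strand: ccatagcaaggttgttaggaatcgatcccg

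The first Rps26 window differs from its copy by G15A, counted from 1 at the 5′ end of the printed bases, with the base of the gene first. It was the start of 2172 reads in BxC and 1571 in CxB. The window copied exactly begins upstream of it and overlaps it, and 0 reads took up exactly that window in both libraries. The bases that it shares with the first window are covered by the reads of the first window. Its exact copy lies at chr8:109963197-109963226. Over all exon windows of Rps26, 22.8% of the 197 with an exact copy held reads in each library, with means of 26.2 reads per window in BxC and 18.9 in CxB. Of the 83 whose nearest copy had 1 mismatch, 91.6% and 90.4% held reads, with means of 128.6 and 89.2.

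The contrast held over the coding windows of the family. Of 23079 coding windows with an exact copy, 6.81% had at least 1 read in BxC and 6.69% in CxB, with a mean of 3.52 and 2.77 reads per window. Of 2924 coding windows whose nearest copy had 1 mismatch, 78.4% and 75.7% had a read, with means of 43.1 and 33.2. Where the nearest copy had 2 mismatches, 64.1% and 59.5% of 940 windows had a read. Of 6358 windows with no copy within 2 mismatches, 33.4% and 30.9% had a read. These last windows came from 25 genes. Over all exon windows of this class, the occupied share differed widely between genes. In BxC it was 0.414% of 1208 windows in Rpl3l and 0% of 682 in Rpl39l, both nearly silent, and 97.6% of 548 in Rpl8. The genes with the most such windows had reads but low shares. In BxC these were 18.4% of 5179 windows in Rps15a, 18.1% of 4700 in Rpl24, 11.3% of 3031 in Rps20 and 7.13% of 2707 in Rpl18. The part that transcript level or the annotated models had in this class was not tested.

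Comparing windows within a gene removes differences of level between genes. With at least 36 exon windows in both classes, 38 genes could be compared. In BxC, 37 of 38 had a smaller share of occupied windows in the exact class than in the class with 1 mismatch, and in CxB also 37 of 38, the exception being Rpl10l, which had no reads. The median share of occupied windows was 2.05% for exact copies in each library and 80.4% and 80.2% for 1 mismatch. Over all exon windows, which include untranslated exons, the mean reads per copied window was 50.6% of that per window without an exact copy in BxC and 51.1% in CxB, and over coding windows alone 15.9% and 16.3%. When windows with a copy at 1 mismatch were counted as copied too, the order turned, to 206% and 205%. Within genes, in reads per window, the exact class was lower in 35 of 38 genes for BxC (not in Rpl10l, Rpl27a and Rpsa). For CxB it was lower in 36 of 38 (not in Rpl10l and Rpl27a). Windows with no copy within 2 mismatches were not part of this count, and against them the order differed between genes. In BxC, Rpl6 had 10.4 reads per window in the exact class and 0.0243 in the class with no copy. Rpl28 had 2.76 and 20.4, the other way round. How many genes went each way was not counted.

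The copied windows that did hold reads were few and were largely shared by the crosses. In BxC 1635 of the 28590 exon windows with an exact copy were occupied and in CxB 1608, and 1547 were occupied in both, 94.6% and 96.2% of each set. Reads at these windows were unevenly spread over genes. Rpl6, a large subunit gene, held 8.76% of these reads in BxC and 10.4% in CxB. Copied windows that lay within 50 bases of a splice site, the length of exon that the authors joined into their junction sequences, made up 27.5% of the copied windows and held 27.6% of the reads there in BxC and 30.8% in CxB.

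Windows across splice junctions behaved differently from windows inside exons. A read was counted as spliced where its alignment was split across a gap, and a junction window had to have at least 5 bases on either side. Of the junction windows of the family, 66.4% matched an exact contiguous copy outside the gene, that is, the same 36 bases without the intron. Even so, 67.3% of the 7686 junction windows with such a copy had reads in BxC and 65.2% in CxB, with means of 36.9 and 27.9 reads per window. Among exon windows with an exact copy it had been 5.72% and 5.62%. Windows whose nearest contiguous copy had 1 mismatch held reads in 90.7% and 87.0% of 848 cases. Of the 2824 junction windows with no copy within 2 mismatches, 20.9% and 20.1% had reads. No junction window of the nearly silent Rpl3l and Rpl39l had an exact copy, and the part of transcript level was not tested.

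For Rpl28 and Rps26, the coding junction window with the most reads in BxC is shown among those that have an exact contiguous copy and at least 10 bases on either side. The printed bases are 30 of the 36 of a window in the direction of the mRNA, with the downstream exon in capitals. The coordinates of the gene include the intron, and the copy has the same letters in an unbroken stretch.
Rpl28, chr7:4744997-4745119, plus strand, copy at chr1:129935212-129935241: cagacgtacagcacgGAGCCAAATAATCTG
Rps26, chr10:128061670-128062269, minus strand, copy at chr6:146595776-146595805: acctgctGGCGCTGCACCTCGACCTCCACC

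The Rpl28 window, across an intron of 93 bases, held 4681 spliced reads in BxC and 3317 in CxB. The Rps26 window held 946 and 865. In both cases the reads were listed at the gene although the same bases stand unbroken elsewhere in the reference. Over 72 genes with at least 36 exon windows and 27 junction windows copied exactly, the median was 0.253 reads per copied exon window and 15.5 reads per copied junction window in BxC, and 0.173 and 11.8 in CxB. Junction windows had the higher mean in 68 of 72 genes for BxC and for CxB in 69 of 72, with Rpl38 and Rpl4 among the exceptions in both libraries and Rpl23 in BxC.

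**Figure D4:**
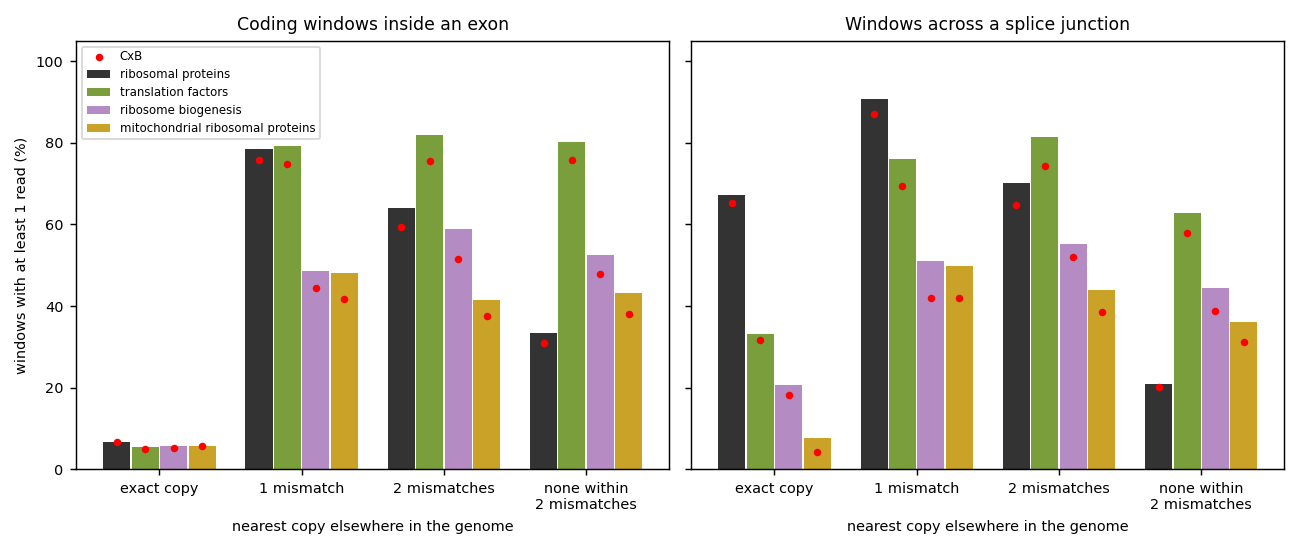
Share of windows with at least 1 read (%, bars from 0 for BxC, red points for CxB) by the mismatches of the nearest copy elsewhere, for coding windows inside an exon (left) and windows across a splice junction (right), in 4 gene lists. Coding windows with an exact copy were rarely occupied in any list (5.42% to 6.81% in BxC), whereas junction windows with an exact copy were occupied in 67.3% of cases for the ribosomal proteins and 7.75% for the mitochondrial ribosomal proteins.

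Spliced reads made up a large part of what was recorded. Among the 77 genes with at least 100 reads, the median spliced share of exon reads was 51.8% in BxC, with a 95% interval from 41.8% to 64.9%. The CxB median was 53.0% (37.4% to 64.7%). Over all protein-coding genes with at least 100 reads it was 7.48% and 7.34%. At least 25% of reads were spliced in 59 of 77 genes in BxC, against 4.50% of 13614 protein-coding genes, and in 60 of 77 in CxB, against 4.13% of 13421. If reads fell evenly on all exon and junction windows of a gene, the median share across junctions would be 16.0%, and 62 of 77 genes (BxC) and 65 (CxB) exceeded their own even share. With reads placed evenly on all junction windows and on exon windows without an exact copy, the median would be 30.7%, which 53 and 54 genes exceeded. With reads placed evenly on windows of both kinds without an exact copy, it would be 5.80% (72 genes with at least 36 such windows).

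Rps27, a small subunit gene with a zinc finger, had the highest spliced share, with 98.8% in BxC (95% Clopper-Pearson interval 98.6% to 98.9%) and 98.5% in CxB. Rps28, also of the small subunit, had 98.1% in each library, and Rps12 had 97.8% and 97.9%. In these 3 genes, picked by their spliced share, all coding windows had an exact copy, and nearly everything recorded from them was spliced. Rps6 and Rpl23a, also copied in all coding windows, had spliced shares of 32.0% and 30.5% in BxC. Over the 57 genes with at least 75% of coding windows copied, the share ran from 5.07% to 98.8% in BxC. The lowest shares were those of Rps4y2 (0% in both), which has 1 exon, Rpl22 (3.92% and 4.03%) and Rpl23 (5.07% and 6.97%). In Rpl22, 42.3% of coding windows and 7.58% of all exon windows were copied. In Rpl23, 79.6% of coding windows were copied.

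**Figure D5:**
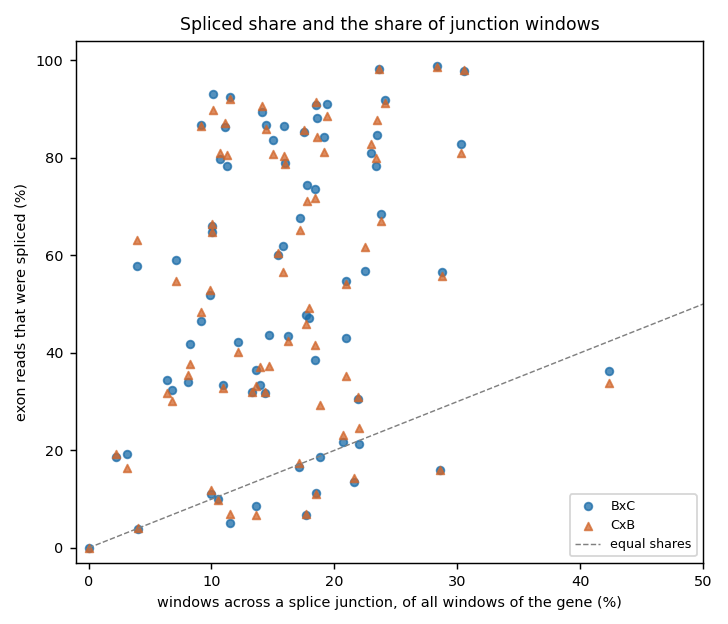
Share of exon reads that were spliced (%) against the share of a gene's windows that cross a splice junction (%), 1 point per library for each gene shown with at least 100 reads. The dashed line marks equal shares, and of all 77 genes, including those not drawn, 62 exceed it for BxC and 65 for CxB.

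Reads were also uneven among the junctions of a gene. In the 71 genes with at least 3 junctions and 100 spliced reads at them in BxC, the leading junction held a median of 54.0% of the reads, with a range of 22.6% to 93.6%, and in CxB 55.4% over 70 genes. Rpl3, the large subunit gene whose 9 annotated junctions are all copied in every window, had 11777 reads at its first junction in BxC and 7791 in CxB. Its junction 4 had 0 and 5 reads and its junction 8 had 1 and 2. Rps12, in contrast, had between 433 and 638 reads at each of its 5 junctions in BxC. Of 250 junctions with all 27 windows copied, 232 had reads in BxC and 229 in CxB, with medians of 299.5 and 247.5 reads. Of 110 junctions with no window copied, 53 and 54 had reads, and 23 had at least 100 in each library. These 110 include all 10 junctions of Rpl3l and all 3 of Rpl39l, which were nearly silent. They also include junctions 6 to 17 of the Rpl24 model, with at most 32 reads each, and the 5 of Rpl8, with 142 to 3993 in BxC. Some are annotated alternatives that share an intron end with another junction of the gene. Junctions 2 to 4 of Rps15a had at most 1 read each, against 217 (BxC) and 247 (CxB) at its fully copied junction 1. In Rpl38 the uncopied junction 2 had 3055 in BxC and 2178 in CxB. The part of such alternatives was not tested.

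When the exon windows without an exact copy were taken alone, the levels moved in both directions. Reads per 1000 such windows were compared with reads per 1000 of all exon windows in the genes that had at least 36 copy-free windows and any reads. The median ratio was 1.35 in BxC (73 genes with a value) and 1.36 in CxB (72 genes). It exceeded 2 in 19 genes in BxC and 18 in CxB, and was largest in Rpl7a, with 6163 against 418 in BxC. In Rpl7a no read lay at a copied window in either library. The ratio of such a gene is set by its copied share alone, which was 93.2% of exon windows in Rpl7a, where it was 14.7 in each library. The ratio was under 1 in 17 and 18 genes. Rpl23a, Rpl36, Rps12 and Rps27 were among the 5 genes with too few copy-free windows for a value.

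Relative to the total of each library, most ribosomal protein genes had a lower count in the CxB library than in the BxC library. The median log2 ratio of CxB to BxC over the 77 genes with at least 100 reads in each was -0.11 (-0.03 with distinct alignment lines), and -0.00 over 13360 protein-coding genes. The ratio was below 0 in 57 of 77 genes, against 50.6% of all genes. No gene of the family passed the 1.5-fold size, which 0.412% of all genes passed upward and 0.464% downward. Cross, animal, sequencing run and library cannot be told apart here. The BxC library was the deeper, with a higher spliced share, and the erythroid genes Hba-a1 and Alas2 had 8751 and 2380 reads in BxC against 6114 and 1409 in CxB; their part in the result was not tested.

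Among the lowest ratios was that of Rpl23, with 2822 reads in BxC and 1880 in CxB, a log2 ratio of -0.35 (95% interval -0.44 to -0.27). Rps18, of the small subunit, had 5622 and 3749 (-0.35, -0.41 to -0.29). The highest ratios were those of Rpl22l1, with 215 and 259 reads (0.50, 0.24 to 0.77), Rpl29 (0.36, 0.30 to 0.42) and Rps24 (0.35, 0.27 to 0.43). These intervals do not contain the spread between animals, which 1 library per cross does not show.

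The stalk proteins bind the translation factors that drive elongation, with Rplp0 as the base to which Rplp1 and Rplp2 attach. Rplp1 had 14149.5 reads per kb in BxC and 12804 in CxB. Rplp0 had 7549 and 5817, and Rplp2 had 1297 and 1254. Coding windows were copied exactly in 73.4%, 74.4% and 80.5% of cases, and spliced shares in BxC were 42.1%, 33.5% and 8.50% for Rplp1, Rplp0 and Rplp2. Rpsa, a small subunit gene whose protein is also known as the laminin receptor, had 982 and 995 reads per kb, with all its coding windows copied, 36 copies in the genome and 58.03% and 52.3% of its exon bases empty.

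Of the paralogs and related genes, Rps19bp1, which encodes a protein that binds Rps19 and not a ribosomal protein, had 3472 reads per kb in BxC and 2813 in CxB. It had no copied window, 1.33% empty bases and a spliced share of 9.96% in BxC. Rps19 itself had 784 and 765 reads per kb, but 45.9% of its coding windows were copied and 40.1% and 36.8% of its exon bases were empty. Over the coding sequence Rps19 had 1796.5 reads per kb in BxC and 1734 in CxB, against 5051 and 3846 for Rps19bp1. Rpl36al, the autosomal relative of the X-linked Rpl36a, had 1696 and 1555, with 77.4% of its coding bases empty in both libraries. Rpl7l1 had 1433 and 1178 reads per kb against 2222 and 1732 for Rpl7. Rps27l, a relative of Rps27 known as a target of p53, had 1633 and 1138 against 42461 and 34693 for Rps27. Rps4y2 had 1347 and 1115, and Rpl22l1 stood below Rpl22, which had 3939 and 3355. In listed reads per kb, Rpl7 and Rpl22 were above the paralog named after them, and Rps19bp1 was above Rps19. The part of copied windows in these orders was not tested. The order of Rps27 and Rps27l depended on the reads counted: per 1000 windows inside exons, which leaves out spliced reads, Rps27 had 771 reads in BxC and 790.2 in CxB against 1941 and 1341 for Rps27l. Rpl41 was not analysed here.

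Rps24 makes mRNAs with different last coding exons, which include or skip a short exon of 20 bases. The junction into that exon, whose intron is chr14:25312716-25314651, had 95 reads in BxC and 81 in CxB. The junction out of it, with the intron chr14:25314672-25314996, is not in the annotation used and had 65 reads in each library. No read was listed at the annotated junction that skips the exon, which allows up to 3 reads per library, and all 27 windows of that junction have an exact contiguous copy elsewhere. The third junction of the gene, with 2 of 27 windows copied, had 1360 and 1320 reads. The first and second, copied in all windows, had 20 and 72 reads in BxC and 58 and 74 in CxB.

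The 3 other lists of genes for protein synthesis gave the scale for these values. The 76 mitochondrial ribosomal protein genes had a median of 1315 reads per kb in BxC, 6.48% empty exon bases, 2.62% of exon windows copied and a spliced share of 9.01%. The 26 translation factor genes had a median of 5911 reads per kb in BxC, against 4609 for the ribosomal proteins. The intervals of these medians overlapped (3611 to 12845 against 2733 to 5901), and the part of copied windows in this order was not tested. The translation factor genes had 13.8% empty bases, 23.2% of windows copied and a spliced share of 11.7%. The 15 ribosome biogenesis genes had 2343 reads per kb, 3.63% empty bases, 5.16% of windows copied and a spliced share of 12.5%. In each list the coding windows with an exact copy were occupied in 5.42% to 6.81% of cases in BxC. Junction windows with an exact contiguous copy were occupied in 33.3% of cases for translation factors, 20.7% for ribosome biogenesis and 7.75% for mitochondrial ribosomal proteins. By gene, at least 25% of reads were spliced in 8 of 76, 4 of 26 and 0 of 15 genes of the mitochondrial ribosomal protein, translation factor and biogenesis lists in BxC.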

How the data were processed

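RNA-Seq of E17.5 whole brain was analysed for 1 library per reciprocal cross (BxC and CxB). The authors used Novoalign to align 36-base single-end reads against the genome, the gene models and sequences joined across splice sites (50 bases of exon on either side), and kept uniquely aligned reads on mm9; tool and build follow the submitters' processing notes, and the version is not given in the sources used here. Per the deposited alignments, each line gives blocks and a whole number, which was used as the count of identical reads; this meaning was inferred from its values. A further deposited column of another kind, with a different number on each line, and a catalog of imprinted genes were not used. The totals were 128944754 and 109719746 reads.

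Genes came from GENCODE release M1 on NCBIM37, which is mm9. Reads were counted by exon overlap on both strands over the union of exons of protein-coding transcripts, per kb and not scaled for depth. Each 36-base exon window, and each junction window with at least 5 bases on either side, was compared with 22 chromosomes at up to 2 mismatches. Windows and chromosomes were those of mm9, without CastEi/J variants. Python 3.11.15, numpy 2.4.6, pandas 2.3.3, SciPy 1.17.1 and numba 0.67.0 were used. Counting and matching were tested on simulated data. Intervals at 95% were order-statistic (medians), Clopper-Pearson (shares) or exact binomial (ratios, scaled by total reads). Those of medians treat genes as independent draws and do not give the spread among genes. The others cover counting error only, since reads carry no molecular identifiers. A count of 0 was given a limit of 3 reads. With 1 library per cross no p-value was computed.

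The genes and lists were chosen with earlier results of these data known. Genes were named where they ranked among the 5 highest or lowest in level or in empty bases, or among the 3 highest or lowest in spliced share or cross ratio, together with paralogs and the genes they resemble, stalk genes, Rpsa and Rps24. Rpl7a, Rpl6, Rpl3, Rpl27a, Rpl4, Rpl38, Rpl21, Rps2, Rpl24, Rpl23a, Rpl36, Rpl18 and Rps20 were named after their values were seen. Of the 80 genes, 4 are not reported by name or drawn as points here; counts and medians include them. Alternatives were distinct lines, strand, exon set, mismatches, read minimum and scaling.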

Additional observations from a re-analysis of the deposited data

How the results depend on the processing

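The median level of 4609 (BxC) and 3463 (CxB) reads per kb was 776 and 654 with distinct alignment lines, 1960 and 1596 with reads on the strand of the gene, 2870 and 2441 with exons of all transcripts, 6033 and 5052 over coding sequence, and 1847 and 1708 at starts without an exact copy. The order of the genes correlated with the original order (Spearman) at 0.947 and 0.945 with distinct lines, 0.936 and 0.944 by strand, 0.949 and 0.951 with exons of all transcripts, 0.949 and 0.95 over coding sequence, and 0.670 and 0.655 at starts without a copy. Bases without reads were 36.1% and 37.6% over coding sequence, 41.6% and 46.5% as bases with fewer than 5 reads, and 38.7% and 39.4% by strand. The median spliced share moved by less than its spread in every alternative run. The median log2 ratio of CxB to BxC was -0.033 with distinct lines and, chosen after seeing the data, -0.070 with unspliced reads. Copied exon windows were 41.4% at 1 mismatch, 44.5% at 2 and, added later, 37.0% without the 9 paralogs and related genes; copied junction windows were 73.7%, 75.6% and 70.0%. Reads per copied window, as a percent of those per uncopied window, were 206% and 205% at 1 mismatch, 353% and 344% at 2, 60.8% and 64.2% with distinct lines and, added later, 15.9% and 16.3% over coding windows. The causes were not tested. No paired analysis was possible because each cross has 1 library, and for the same reason no replicate could be left out. Depth limits genes at 0 reads to a bound of 3 reads.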

Other observations

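Gene symbols of the ribosomal proteins that carry the pseudogene mark -ps were left out of the report. The annotation types 86 of them as pseudogenes, of which 62 had exon reads in BxC and 61 in CxB, with medians of 5.46 and 4.90 reads per kb. Another 55 are typed as protein-coding, of which 41 and 40 had reads, with a median of 4.14 in each library. The highest level was that of Rpl28-ps3, with 4426 reads per kb in BxC and 2741 in CxB, followed in BxC by Rplp2-ps1 with 1486 and in CxB by Rps16-ps2 with 1453. Rplp2-ps1 had 1023 in CxB, Rps16-ps2 had 1376 in BxC, and Rpl14-ps1 had 1286 and 984. The authors describe keeping uniquely aligned reads, and whether these reads were transcribed from the copies was not tested.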
